A study of Bos grunniens with 12 samples.

Results

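Notch signalling is a route by which neighbouring cells instruct each other through direct contact. A ligand of the Jagged or Delta-like family on one cell binds a Notch receptor on the next, the receptor is cut by an ADAM protease and then by γ-secretase, and its intracellular part enters the nucleus and turns on target genes such as HES1 and HEY1 together with RBPJ and a Mastermind-like coactivator. In the testis the pathway is best known from Sertoli cells, the nurse cells of the seminiferous epithelium, and from the vasculature. The 4 receptors NOTCH1 to NOTCH4, 4 ligands (JAG1, JAG2, DLL1 and DLL4) and 2 target genes (HES1 and HEY1) were examined in yak testis at both ages. All rows of the deposited expression table that carry one of these 10 symbols were taken, together with every differential m6A peak assigned to them. Of the 10 symbols, 9 were found, on 21 of the 20953 rows of the table, and 2 of the 1438 differential peaks belonged to them. No row carried the symbol DLL4, so this ligand was not analysed here.

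Testicular tissue came from 3 yaks aged 1.5 years (Y group) and 3 yaks aged 5 years (M group), and each animal gave 2 libraries, an input library and an immunoprecipitated (IP) library of m6A-bearing RNA, 12 in all. N6-methyladenosine (m6A) is a methyl mark on adenosines of mRNA; an antibody against it pulls down the fragments of the IP library, and the input library, made without this step, serves here as RNA-seq. No genetic modification of the animals is stated, and antibiotics were given to the Y animals only after the tissue had been taken. The Y testes were obtained by castration and the M testes from slaughtered animals, so age and the way of collection cannot be told apart. Ages were taken from the sample titles; a further label, the developmental stage, gives the reverse order and was set aside, and the letters Y and M follow the article, since the record exchanges them.

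Expression was available as FPKM (fragment counts divided by transcript length and library size) for the 6 input libraries only. The FPKM values of a library summed to 133504 to 139921 in the Y group and to 116187 to 131024 in the M group. The value of a single fragment, read from the steps between low values, varied only from 0.911 to 1.01 relative to Y replicate 1. The M libraries were not alike: over the tested genes, M replicate 2 correlated with the Y libraries at 0.942 to 0.947 and M replicate 1 at 0.817 to 0.837. Transcripts of late spermatids, the cells that become sperm, were abundant in the libraries labelled 1.5 years and lower in those labelled 5 years, which goes against the order of maturity that the labelled ages imply. Every direction given here rests on the labelled ages and would turn if they were exchanged. The 12437 genes that averaged 0.5 FPKM or more were compared with limma on log2(FPKM + 0.1), and p-values were adjusted by the Benjamini-Hochberg method over all of them. Only 4 genes (0.0322%) had an adjusted p-value under 0.05, while 25.1% had an unadjusted p-value under 0.05, 9.26% also had a log2 fold change past 1 in either direction, and in 33.7% the values of the ages did not overlap.

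The methylation data placed 2 differential peaks on Notch receptors, 1 on NOTCH1 and 1 on NOTCH4, and none on a ligand or target. Over all its genes, the expression table had 5.63% with such a peak, and 9.29% of the genes tested for expression did. The NOTCH1 peak lay at chr9:13473956-13476112 (LU_Bosgru_v3.0), 2157 bp, and was annotated to exon 14 of 36 of transcript ENSBGRT00000047815. The gene lies on the minus strand from 13456296 to 13508771, and the peak covered 62.2% to 66.3% of its length counted from its start. Its width spans genomic sequence, introns included, and was larger than that of 77.9% of the peaks in the table, whose median width was 398 bp.

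The NOTCH4 peak lay at chr24:8017415-8017914, 500 bp, in exon 30 of 30 of transcript ENSBGRT00000032338. This gene is also on the minus strand, from 8017266 to 8045082, and the peak ended 149 bp before the end of the gene, at 97.7% to 99.5% of its length. A peak in the last exon was not particular to NOTCH4, since 18.4% of all differential peaks (264 of 1438) were annotated to the last exon of their transcript. The deposited peak file states no size, p-value or direction of the difference, so at which age the NOTCH1 or NOTCH4 peak was stronger was not analysed here.

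**Figure D1:**
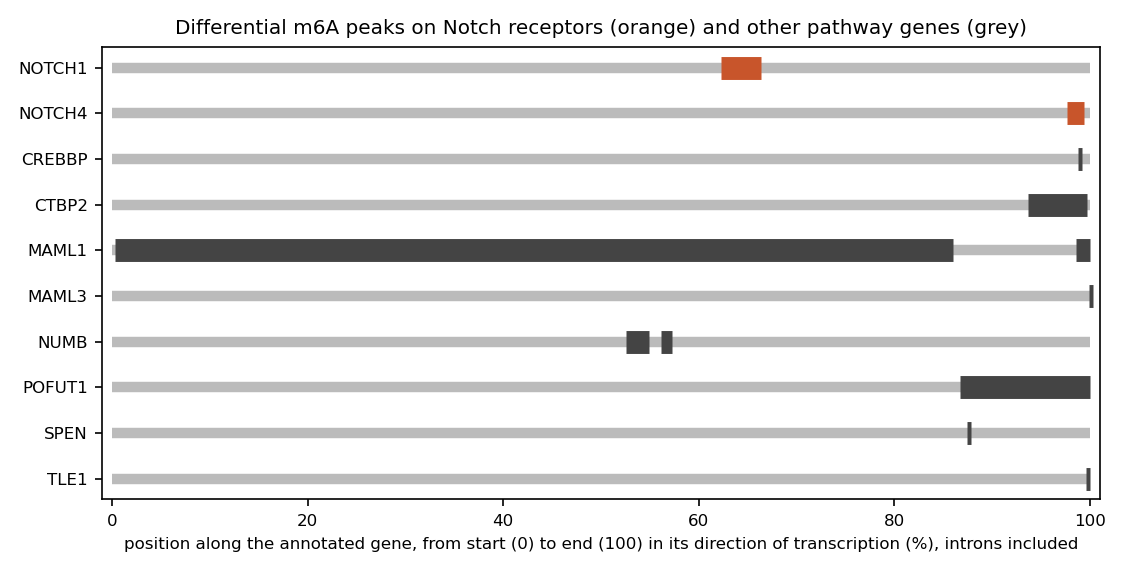
Position of the differential m6A peaks along the annotated gene, in % of gene length from start to end in the direction of transcription with introns included, for NOTCH1 and NOTCH4 (orange) and for the other pathway genes that have a peak (dark grey on the light grey gene body). The NOTCH1 peak sits at 62.2% to 66.3% of the gene and the NOTCH4 peak at 97.7% to 99.5%; peaks under 0.4% of the gene are drawn 0.4% wide.

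Among the receptors, NOTCH2 was the most abundant by mean FPKM at both ages. NOTCH2 (ENSBGRG00000013357), a widely expressed receptor, had 4.38, 4.57 and 3.91 FPKM in Y replicates 1 to 3 and 11.4, 5.46 and 7.93 FPKM in M replicates 1 to 3. All 3 M libraries lay above all 3 Y libraries, but M replicate 2 was near the Y values and M replicate 1 far from them. The mean was 8.28 ± 3.01 FPKM (SD, n = 3) in the M group against 4.29 ± 0.337 (SD, n = 3) in the Y group, 1.93 times as high. On the log2 scale the difference was 0.87 ± 0.26 (SE), which did not pass the test (limma, adjusted p = 0.154, unadjusted p = 0.0124). Without M replicate 2 it was 1.14 and passed (limma, adjusted p = 0.0238). This was not particular to NOTCH2, since 2403 of the 12437 genes passed in that fit, against 4 with all libraries.

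NOTCH1 (ENSBGRG00000025848), the receptor with the mid-gene peak, had 2.22, 1.50 and 1.75 FPKM in the Y group and 5.63, 2.46 and 2.59 FPKM in the M group. Again the ages did not overlap, and M replicate 1 alone was more than 3 FPKM above the highest Y library. The means were 1.82 ± 0.367 and 3.56 ± 1.80 FPKM (SD, n = 3 each), which differed on the log2 scale by 0.84 ± 0.34 (SE; limma, adjusted p = 0.185, unadjusted p = 0.0402). Without M replicate 1 the log2 fold change was 0.46. A second row with the symbol NOTCH1 (ENSBGRG00000025875) had 0.673 to 1.10 FPKM over all 6 libraries, with overlapping ages. Its log2 fold change was -0.20 (limma, adjusted p = 0.630). The annotation of this second row names angiogenesis, extracellular matrix and negative regulation of Notch signalling, and whether it measures the receptor was not tested.

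NOTCH3 (ENSBGRG00000018066), known from vascular smooth muscle and pericytes, was low and differed little. It had 0.743, 0.738 and 0.884 FPKM in the Y group and 0.985, 0.934 and 0.964 FPKM in the M group, without overlap. The log2 fold change was 0.26 ± 0.23 (SE; limma, adjusted p = 0.470), and the ages overlapped once the libraries were centred on their median or quantile normalized.

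NOTCH4, the receptor known mainly from endothelial cells, was lower in the M group, in contrast to the rows that stand for the other receptors. The row that carries the peak (ENSBGRG00000017319) had 0.900, 1.08 and 0.912 FPKM in the Y group and 0.494, 0.726 and 0.697 FPKM in the M group. No M library reached the lowest Y library, and the means were 0.964 ± 0.102 and 0.639 ± 0.126 FPKM (SD, n = 3 each). The log2 fold change was -0.54 ± 0.26 (SE; limma, adjusted p = 0.239), and the receptors with a differential peak thus had log2 fold changes of opposite sign.

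Another 5 rows carry the symbol NOTCH4, and they show why the identifier matters. ENSBGRG00000018134 had 1.73, 1.31 and 1.48 FPKM in the Y group and 0.102, 1.08 and 0.410 FPKM in the M group, a log2 fold change of -1.69 (limma, adjusted p = 0.168). Its annotation in the deposited table names RNA-mediated transposition and no Notch function. The other 4 rows did not exceed 0.331 FPKM in any library, and 3 of them are annotated to immune response and T cell receptor signalling. Only ENSBGRG00000017319 has a Notch term among its annotations.

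None of the ligands passed the test. JAG2 (ENSBGRG00000006002), a ligand known from germ cells and many epithelia, had 2.33, 2.26 and 2.69 FPKM in the Y group and 2.87, 2.54 and 2.31 FPKM in the M group. It was the only tested gene of the set whose ages overlapped. Its means were 2.43 ± 0.229 and 2.57 ± 0.283 FPKM (SD, n = 3 each), and the log2 fold change of 0.08 ± 0.17 (SE; limma, adjusted p = 0.770) turned to -0.01 after quantile normalization.

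JAG1, a ligand known from the vessel wall and other supporting tissue, stands on 5 rows, of which 2 were expressed. ENSBGRG00000010280 had 0.993, 1.43 and 1.39 FPKM in the Y group and 1.93, 1.69 and 1.68 FPKM in the M group. ENSBGRG00000009959 had 1.20, 1.35 and 1.01 FPKM in the Y group and 2.01, 1.41 and 1.72 FPKM in the M group. Both rows were thus higher in every M library than in any Y library, by log2 fold changes of 0.46 ± 0.21 and 0.49 ± 0.22 (SE; limma, adjusted p = 0.220 and 0.213). Neither row is annotated to Notch signalling in the deposited table. The first is annotated only to nucleus and cytoplasm, like the abundant HES1 row described below, and the second has no annotation. Whether either row measures JAG1 was not tested, and this holds wherever JAG1 is counted or ranked here. The remaining 3 rows did not exceed 0.0540 FPKM. Without Y replicate 1 the log2 fold change of the first row was 0.30.

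DLL1 (ENSBGRG00000023757), a Delta-like ligand, had 0.594, 0.628 and 1.01 FPKM in the Y group and 0.434, 0.550 and 0.429 FPKM in the M group. Its values were near the limit of the filter and the M libraries were all lower, with means of 0.745 ± 0.233 and 0.471 ± 0.0685 FPKM (SD, n = 3 each). The log2 fold change of -0.54 ± 0.32 (SE; limma, adjusted p = 0.314) became -0.32 without Y replicate 3, the highest library. A second row with this symbol was listed at 0 in all 6 libraries.

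The target genes gave no single answer, because HES1, a transcriptional repressor and a direct target of Notch, stands on 2 rows that differ in level by an order of magnitude. The abundant row (ENSBGRG00000024652) had 10.5, 11.7 and 11.8 FPKM in the Y group and 8.10, 9.39 and 8.39 FPKM in the M group. Its M libraries were all lower, by 0.40 ± 0.14 (SE) on the log2 scale (limma, adjusted p = 0.165, unadjusted p = 0.0225). The other row (ENSBGRG00000024386) had 0.117, 0.687 and 0.430 FPKM in the Y group and 0.537, 0.629 and 0.557 FPKM in the M group, with overlapping ages. This second row is the one annotated to the Notch signalling pathway and to sequence-specific DNA binding, whereas the abundant row is annotated only to nucleus and cytoplasm. With a mean just under the filter it entered only the fit over all genes above 0, where the log2 fold change was 0.58 ± 0.48 (SE; adjusted p = 0.509). Which of the rows measures HES1 was not tested, and the abundant row stands for the symbol in the counts only because it has the higher mean.

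HEY1 (ENSBGRG00000017930), a related repressor, was at the limit of detection. It had 0.358, 0.139 and 0 FPKM in the Y group and 0.437, 0.350 and 0.274 FPKM in the M group. The smallest whole fragment numbers that fit these values are about 5, 2 and 0 fragments and 6, 5 and 4 fragments, so the difference may rest on few fragments. In the fit over all genes above 0 the log2 fold change was 1.02 ± 0.55 (SE; limma, adjusted p = 0.327).

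**Figure D2:**
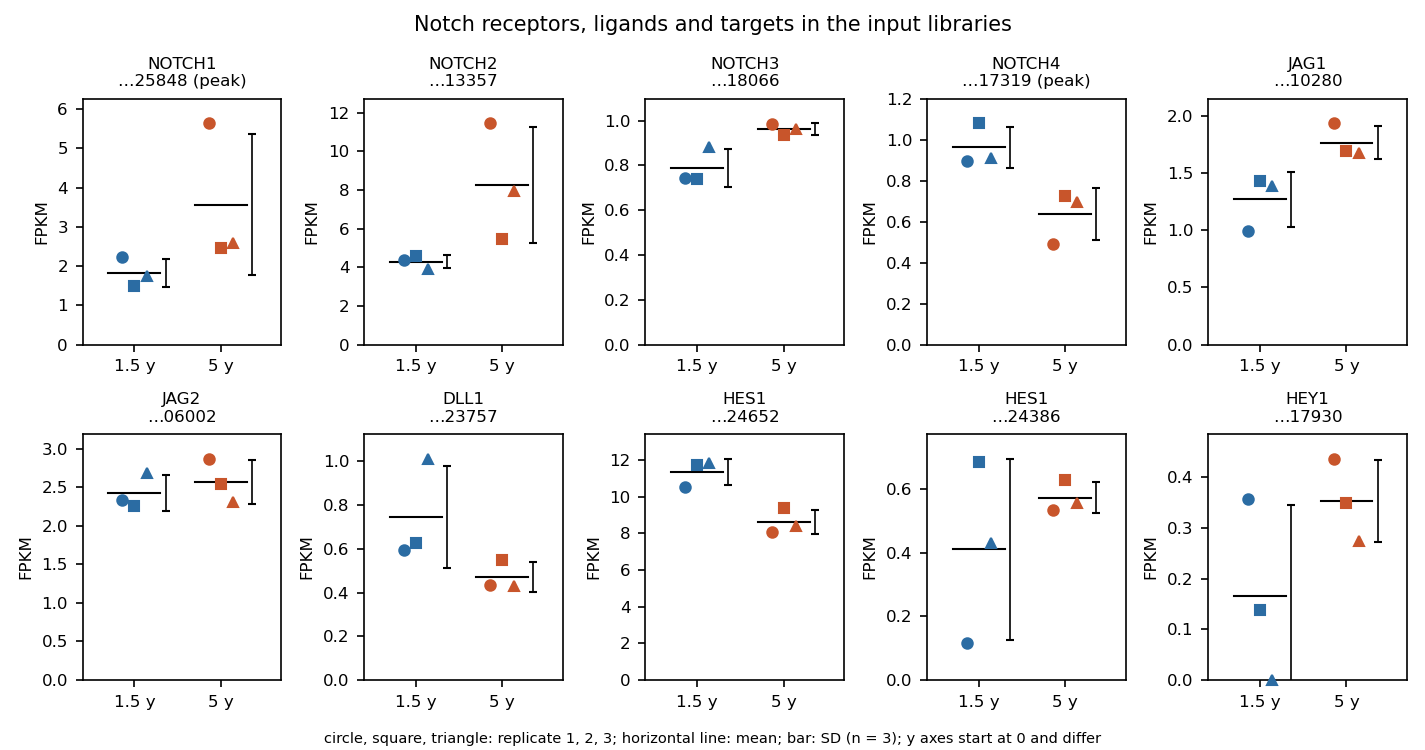
FPKM of the Notch receptors, ligands and targets in the 6 input libraries, with the 1.5-year (Y) libraries in blue and the 5-year (M) libraries in orange; marker shapes give the replicate, horizontal lines the mean and bars the SD (n = 3), and every y axis starts at 0. NOTCH1 and NOTCH2 have their highest value in M replicate 1, JAG2 overlaps between ages, and the HES1 rows lie at 8.10 to 11.8 FPKM and at 0.117 to 0.687 FPKM.

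Of the 21 rows, 11 passed the filter and were tested, among them the row that stands for 8 of the 9 symbols. None of these 8 genes passed the test at an adjusted p-value under 0.05. An unadjusted p-value under 0.05 was found for 3 of them (NOTCH1 and NOTCH2, higher in the M group, and the abundant HES1 row, lower), against 25.1% of all genes, 14.2% higher and 10.9% lower. The ages did not overlap in 7 of the 8. Higher in the M group were 4 (NOTCH1, NOTCH2, NOTCH3 and JAG1) and lower 3 (NOTCH4, DLL1 and HES1), against 19.8% and 13.9% of all genes. The Notch genes are counted with 1 chosen row per symbol, whereas the shares of all genes count all 12437 tested rows, which carry 10326 symbols. An exact permutation test of 3 against 3 libraries cannot give less than p = 0.1 (two-sided), so it was not used for single genes. The median log2 fold change of the 8 genes was 0.17, beside 0.04 over all genes tested. With the Notch-annotated row of a symbol where there is one, 7 genes were tested, 4 were higher and 2 lower without overlap, and the median was 0.26.

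**Figure D3:**
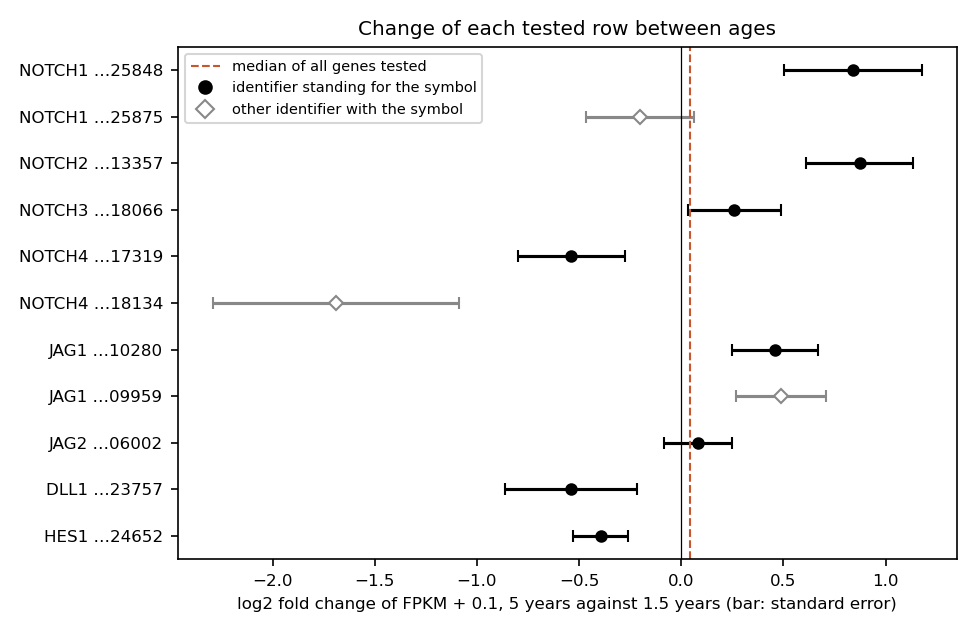
Log2 fold change (5 years against 1.5 years, on FPKM + 0.1) with its standard error for the 11 tested rows, filled circles for the row that stands for a symbol and open diamonds for other rows with the same symbol; the dashed line is the median of all genes tested (0.04). NOTCH1 and NOTCH2 lie near 0.84 and 0.87, and the NOTCH4 rows and DLL1 lie below 0.

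FPKM is scaled by transcript length, so levels can be ordered across genes. In the Y group the order of mean FPKM was NOTCH2, JAG2, NOTCH1, JAG1, NOTCH4, NOTCH3, DLL1, HES1 and HEY1, with the annotated row taken for HES1. There the libraries of NOTCH2, JAG2 and NOTCH1 were each separated from the next gene, whereas JAG1 overlapped with NOTCH4, and from NOTCH3 downwards each gene overlapped with the next. In the M group NOTCH1 stood above JAG2, but NOTCH2, NOTCH1 and JAG2 overlapped in sequence. JAG1, at 1.77 FPKM, and NOTCH3, at 0.961 FPKM, were each separate from the genes beside them, while NOTCH4, HES1, DLL1 and HEY1 again overlapped each with the next. NOTCH4 stood above NOTCH3 in the Y group and below it in the M group, with no overlap between the 2 receptors at either age.

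Where the ages did not overlap, the libraries of the M group mostly stood in one order, in these genes as in the whole table. Of the 18 genes among the receptors, ligands, targets and the further pathway genes described next that were higher in the M group without overlap, M replicate 1 was the farthest from the Y group in 15 and M replicate 2 the nearest in 15. Of the 12 lower genes, M replicate 1 was the farthest in 11 and M replicate 2 the nearest in 10. Over the 2465 higher and 1731 lower genes of the whole table without overlap, M replicate 1 was the farthest in 75.3% and 86.1% and M replicate 2 the nearest in 75.9% and 72.1%. For NOTCH2 the difference from the Y mean was 1.40 in M replicate 1, 0.35 in M replicate 2 and 0.87 in M replicate 3, on the log2 scale.

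By their sums, Sertoli cell, peritubular, spermatogonium, Leydig cell, round spermatid and elongating spermatid markers stood in the same order of libraries. In bulk tissue, fewer cells of a type and less RNA per cell cannot be told apart. Of the 9 Sertoli cell markers 7 are in the table (SOX9, GATA4, WT1, INHA, INHBB, FSHR and DHH), and their summed FPKM was 78.9 to 93.3 in the Y libraries and 262.5, 114.1 and 141.0 in M replicates 1 to 3. That sum was mostly INHA, with means of 62.1 and 130.7 FPKM, and INHBB overlapped between ages. All 5 peritubular myoid cell markers are in it, with sums of 17.6 to 19.1 FPKM against 41.2, 22.1 and 37.7 FPKM. Elongating spermatid markers went the other way: TNP1, ODF1, HMGB4 and GAPDHS, the 4 of 8 that are in the table, summed to 1154 to 1195 FPKM in the Y libraries and to 262.5, 848.7 and 731.4 FPKM in M replicates 1 to 3. These genes serve the last steps of sperm formation, and their sum was mostly TNP1, with means of 871 and 464 FPKM.

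The 4 of 6 round spermatid markers in the table summed to 188.2 to 236.3 FPKM in the Y group and to 52.6, 188.8 and 96.7 FPKM in M replicates 1 to 3. The 8 endothelial markers, which bear on NOTCH4 and JAG1, summed to 7.64 to 10.5 FPKM against 9.20 to 12.6 FPKM. VWF was the largest part, with means of 5.08 and 5.66 FPKM. The 4 pericyte markers, which bear on NOTCH3, summed to 7.01 to 12.01 FPKM against 6.30 to 8.51 FPKM. That sum was mostly RGS5, with a log2 fold change of -0.49, whereas PDGFRB and MCAM had 0.40 and 0.34. Spermatogonium markers (5 of 6 in the table) summed to 50.4 to 58.5 FPKM in the Y group and to 110.6, 58.8 and 65.5 FPKM in M replicates 1 to 3. The 7 spermatocyte markers ran from 49.1 to 50.0 FPKM and from 47.3 to 53.1 FPKM. Macrophage markers (4 of 5) summed to 8.37 to 13.01 FPKM against 10.3 to 18.2 FPKM. That sum was mostly CD14, whereas CD163 was lower in the M group without overlap (means 0.884 and 0.326 FPKM). Leydig cell markers (2 of 6) summed to 10.1 to 19.1 FPKM against 7.40, 8.40 and 7.87 FPKM in M replicates 1 to 3. No marker in the table was at 0 in all libraries. The part of cell composition in the differences of the Notch genes was not tested.

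**Figure D4:**
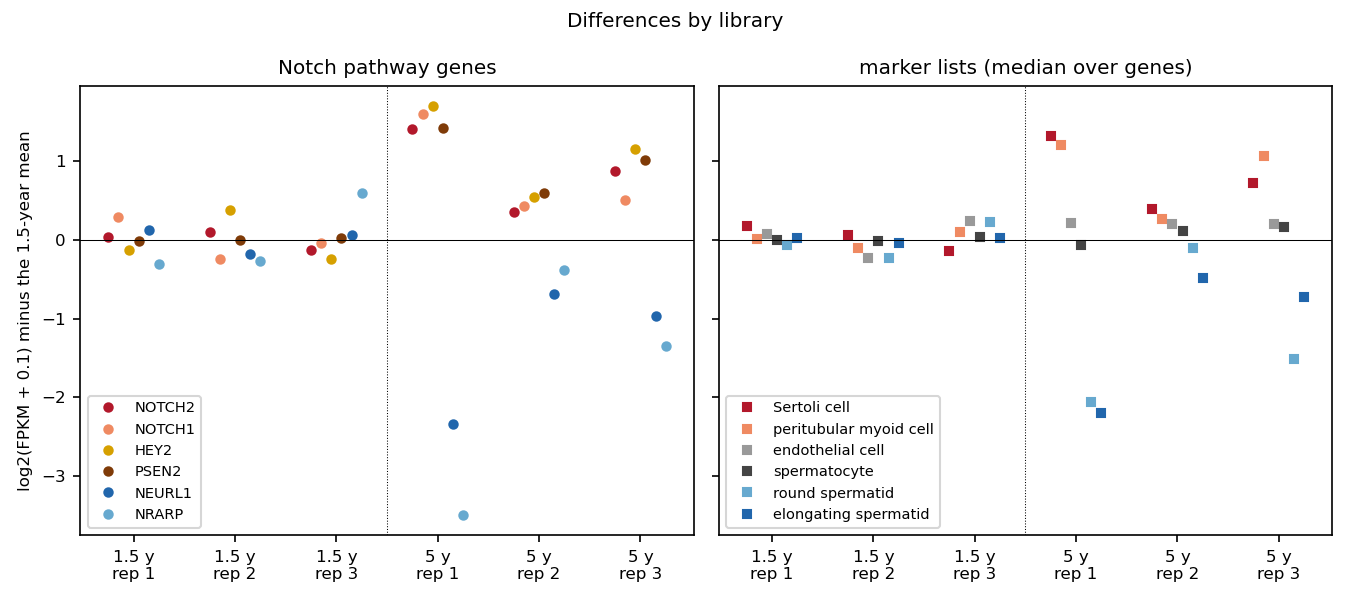
Difference of log2(FPKM + 0.1) from the mean of the 1.5-year (Y) libraries in each of the 6 input libraries, for 6 Notch pathway genes (left) and as the median over the genes of 6 marker lists (right). In M replicate 1 (5 y, rep 1) NOTCH2 is at 1.40 and the Sertoli cell list at 1.32. NRARP is at -3.49 there and the elongating spermatid list at -2.20. M replicate 2 is the nearest to the Y libraries for all 6 genes, which were picked for display. It is not the nearest for every Notch gene: for JAG1, not shown, M replicate 3 is at 0.390 and M replicate 2 at 0.402.

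A further list of 61 Notch pathway genes covered other ligands, receptor and ligand processing, trafficking and turnover, the nuclear complex and other targets. Of these, 56 are in the table and 51 were tested; PSENEN, ITCH, DTX3L, RBPJ and HES6 have no row. None passed at an adjusted p-value under 0.05, whereas 16 did (10 higher) without M replicate 2, when 2403 genes of the whole table did. Unadjusted p-values were under 0.05 for 12 genes with higher and 7 with lower values in the M group, against 14.2% and 10.9% of all genes, and the ages did not overlap for 14 higher and 9 lower genes, against 19.8% and 13.9% of all genes. The median log2 fold change was 0.08, beside 0.04 over all genes tested.

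Of the 4 further ligands, 1 had a positive log2 fold change, and the median was -0.71. The ages did not overlap for 1 higher and 2 lower ligands, against 19.8% and 13.9% of all genes. DLK1 and DNER lay at the ends. DLK1, a non-canonical ligand that lacks the domain with which Delta and Jagged proteins bind Notch, had 0.446 ± 0.0752 FPKM in the Y group and 1.37 ± 0.832 FPKM in the M group (log2 fold change 1.28, adjusted p = 0.164). DNER, another non-canonical ligand, had 1.08 ± 0.210 against 0.442 ± 0.330 FPKM (log2 fold change -1.29, adjusted p = 0.171).

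Among the 13 tested genes of receptor and ligand processing, the Fringe glycosyltransferases, which extend the sugar on Notch and so tune which ligand it answers to, stood at both ends. MFNG had 0.272 ± 0.118 FPKM in the Y group and 1.31 ± 0.799 FPKM in the M group (log2 fold change 1.82, adjusted p = 0.154). RFNG was abundant, at 64.5 ± 7.22 against 40.1 ± 7.66 FPKM (log2 fold change -0.70, adjusted p = 0.154). POFUT1, which adds the fucose that Fringe enzymes extend, carried a peak of 3392 bp from exon 6 of 7 to the end of the gene, with overlapping expression (log2 fold change -0.17, adjusted p = 0.723). PSEN2, a catalytic subunit of γ-secretase named after its values were seen, had a mean of 1.65 against 3.51 FPKM, without overlap of the ages (adjusted p = 0.154).

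In trafficking and turnover, 10 genes were tested. DTX3, of the Deltex family of ubiquitin ligases, had 1.88 ± 0.424 against 3.14 ± 0.607 FPKM (log2 fold change 0.72, adjusted p = 0.154), and NEURL1, a ubiquitin ligase that acts on ligands, had 35.1 ± 3.88 against 15.4 ± 7.69 FPKM (log2 fold change -1.33, adjusted p = 0.154). NUMB, an inhibitor that promotes removal of the receptor, is uncertain in the same way as HES1. The NUMB row with 2 differential peaks (ENSBGRG00000016829) is annotated to histone demethylation and had a log2 fold change of -0.87 (adjusted p = 0.154), while the row annotated to Notch signalling (ENSBGRG00000016469) had no peak and 0.14 (adjusted p = 0.564).

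The nuclear complex, with 19 of the 51 tested genes, held 7 of the 10 further peaks, 2 of them on MAML1. Of its 19 tested genes, 6 carried a differential peak, against 9.29% of all genes tested. That share counts every tested row, whereas the rows of the group were chosen with a preference for a peak. With the Notch-annotated row of a symbol where there is one, 6 genes also carried a peak. In expression, counted with 1 row per symbol, 7 of the 19 genes were higher in the M group without overlap and none was lower. The shares of all genes were 19.8% and 13.9%, and the median log2 fold change of the 19 was 0.18. CTBP1 is among the 7 by its most abundant row, which is annotated to the Notch pathway (log2 fold change 0.58). Another CTBP1 row (ENSBGRG00000019312) was lower without overlap (log2 fold change -0.90, limma, adjusted p = 0.167). A further CTBP1 row had -1.81 with overlapping ages. With the libraries centred on their median 5 of the chosen rows were higher and none lower, but the shares of all genes were not counted on that scale. CTBP2, a corepressor, had a peak of 2521 bp in the 3′ UTR and 1.26 ± 0.183 against 2.69 ± 0.546 FPKM (log2 fold change 1.03, adjusted p = 0.154). TLE1, a corepressor of the Groucho family that HES proteins recruit, had a peak of 299 bp in the 3′ UTR and 3.42 ± 0.267 against 6.15 ± 1.36 FPKM (log2 fold change 0.81, adjusted p = 0.154). MAML1 and MAML3 are coactivators of the Mastermind-like family. MAML1 carried 2 peaks, 1 annotated to exon 1 of 6 that spans 55432 bp of the genome and 1 of 899 bp in exon 6 of 6, with a log2 fold change of -0.05 (adjusted p = 0.850). MAML3 had a peak of 300 bp in exon 5 of 5 and a log2 fold change of 0.70 (adjusted p = 0.210).

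CREBBP, an acetyltransferase recruited by the complex, had a peak of 250 bp in exon 33 of 33 (log2 fold change 0.11, adjusted p = 0.601). SPEN, a corepressor that binds RBPJ, had a peak of 151 bp in exon 11 of 17 (log2 fold change 0.08, adjusted p = 0.815). CIR1, a corepressor that also binds RBPJ, had the lowest log2 fold change of the group, -0.24 (adjusted p = 0.469), with overlapping ages and no peak.

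Of the 5 other targets tested, HEY2, a repressor of the same family as HEY1, had 1.32, 1.92 and 1.21 FPKM in the Y group and 4.92, 2.16 and 3.35 FPKM in the M group (log2 fold change 1.12, adjusted p = 0.154). NRARP, a target that limits Notch activity in turn, had 18.6, 19.0 and 34.7 FPKM in the Y group and 1.97, 17.6 and 8.99 FPKM in the M group (log2 fold change -1.74, adjusted p = 0.195). HEY2 and NRARP thus lay at opposite ends, each without overlap, and in both M replicate 1 was the most distant library. The row standing for HEYL (ENSBGRG00000000845, log2 fold change 1.06) is annotated to mRNA 3′-UTR binding, while the row annotated to Notch signalling (ENSBGRG00000000802) had 0.52 (adjusted p = 0.369) and overlapping ages; both were named after their values were seen.

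**Figure D5:**
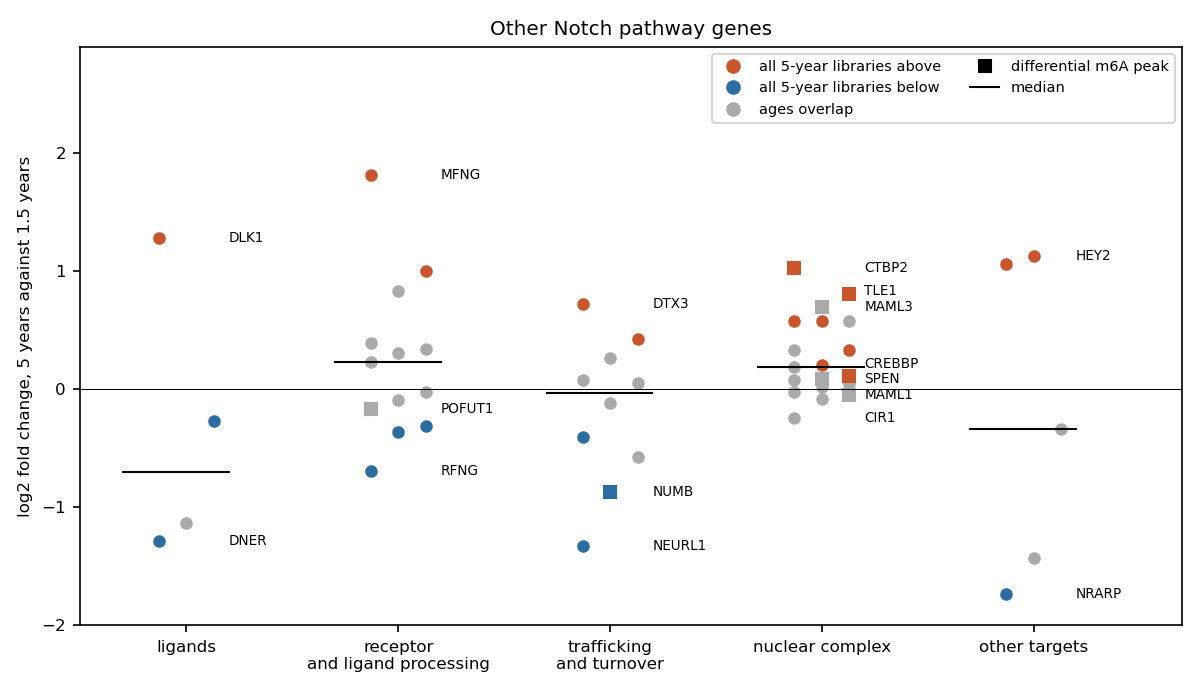
Log2 fold change (5 years against 1.5 years) of the 51 tested further Notch pathway genes by group, coloured by whether all 5-year libraries lie above, below or among the 1.5-year libraries; squares carry a differential m6A peak and horizontal lines are medians. With 1 row per symbol, the nuclear complex has 7 genes above and none below without overlap, while the other groups hold both, from MFNG (1.82) to NRARP (-1.74). A second CTBP1 row, not shown, lies below without overlap (-0.90).

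The deposited annotation gives a further definition of the pathway. The KEGG Notch signaling pathway holds 42 identifiers of the table, of which 34 were tested. It shares many genes with the lists above, so its counts are not independent of theirs, and it also holds rows named COQ2, LIN37 and CNPY3. None passed at an adjusted p-value under 0.05, 11 with higher and 2 with lower values had an unadjusted p-value under 0.05 (14.2% and 10.9% of all genes), and the ages did not overlap for 13 higher and 4 lower identifiers (19.8% and 13.9% of all genes). The median log2 fold change was 0.19, beside 0.04 over all genes tested.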

How the data were processed

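The authors deposited FPKM values for the genes of the input libraries. Reads, per their methods, were trimmed with Trimmomatic, cleared of rRNA with SortMeRNA and aligned with HISAT2 2.0.4 to LU_Bosgru_v3.0, keeping unique alignments; the program that computed FPKM is not given in the sources used here. Peaks were called and compared by the authors with MeTDiff and annotated with ChIPseeker; widths and positions were taken as deposited. How replicates entered that comparison is not stated.

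Genes averaging 0.5 FPKM or more were fitted with limma 3.58.1 in R 4.3.3 (lmFit, eBayes with a trend) on log2(FPKM + 0.1), with 3 libraries per age; tests are two-sided and Benjamini-Hochberg adjusted. Fold changes on this scale understate changes of low genes. Each library of an age is 1 animal, per the labels. The fit was tested on simulated data. Python 3.11.15, pandas 2.3.3, numpy 2.4.6 and matplotlib 3.10.9 served all other steps. Depth in fragments is unknown. The relative value of 1 fragment in each library was read from values under 0.15 FPKM. For rows averaging under 0.5 FPKM, the smallest fragment numbers that fitted within 0.25 of a fragment were taken.

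The 10 members and the lists were chosen with earlier results of these data known. Named were all members with every identifier, and of the other pathway genes those with a peak, those called and, per group, the largest and smallest log2 fold change. For a symbol on several identifiers (3871 symbols), a row with a differential peak was preferred, and otherwise the row with the largest mean. The same rule served the cell type markers. IP libraries have no values by gene here, and sequences of peaks were not analysed here. A gene of the pathway list is not reported here.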

Additional observations from a re-analysis of the deposited data

How the results depend on the processing

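The count of 4 genes changed over the whole table was 2 with a pseudocount of 0.01, 8 with all genes above 0, 2 with a mean FPKM of at least 1, 9 with eBayes without a trend, 1 with the replicate block, 2 with FPKM summed over the identifiers of a symbol and 1152 at an unadjusted p-value under 0.05 with a log2 fold change past 1. Leaving out 1 library gave 0 to 2403 genes. The 2403 came without M replicate 2 and the 0 without Y replicate 3, where 1662 genes had an unadjusted p-value under 0.05 in limma. The 8 Notch genes had 0 calls in every alternative (0 to 1 when 1 library was left out) except without M replicate 2, where NOTCH2 passed (log2 fold change 1.14, adjusted p = 0.0238). The further pathway genes had 0 calls except without M replicate 2 (16, of which 10 higher; 0 to 16 over the libraries left out) and 9 at an unadjusted p-value with a log2 fold change past 1. Peaks of at most 1000 bp left 1 member with a peak, NOTCH4. Over 133 alternatives of single log2 fold changes, 131 kept direction and call; JAG2 turned to -0.011 with quantile normalization and NOTCH2 passed as above. Scaling to the same sum moved the median of all genes from 0.04 to 0.17, and the members' median from 0.17 to 0.29.

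Same-numbered libraries of both ages did not deviate together (correlations of -0.02, -0.09 and 0.01). The numbers were therefore not treated as pairs, although these correlations cannot show how the animals were numbered or processed. With the replicate block 0 Notch genes and 0 further pathway genes passed. Summing all rows of a symbol gave NOTCH4 -1.17 and NOTCH1 0.59. The NOTCH4 sum includes the row annotated to transposition, and the NOTCH1 sum the row annotated to negative regulation of Notch signalling. Counts of genes without overlap and the annotated row per symbol were chosen after seeing the data. With median centring or quantile normalization 6 of the 8 Notch genes did not overlap, since NOTCH3 did. The shares of all genes were not counted under these 2 scalings, so this count has no background beside it. With 3 libraries per age and no fragment counts, differences in HEY1, DLL1 and the annotated HES1 row are limited by depth.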
